A study of Homo sapiens and Mus musculus with 28 samples.

Results

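GATA6 was depleted for 12 h in DLD-1 cells, a human colorectal adenocarcinoma line, and auxin was then removed for 24 h to follow how far transcripts came back. The comparison takes every library labelled as auxin washout at 24 h and every library labelled as auxin at 12 h, 3 of each, or 6 of the 28 samples of the series. All carried the genotype GATA6-AID-IAA7, in which GATA6 bears an auxin-inducible degron. The 12 h cells received 500 µM indole-3-acetic acid (IAA, an auxin). The washout cells received the same dose for 12 h, were rinsed 3 times in DPBS and were then kept in complete medium for 24 h, so that they were harvested 36 h after auxin was first added. The 3 control libraries, labelled auxin at 0 h, came from the same tagged genotype and serve as the reference level. Further groups of 3 libraries each are used to choose genes: the same degron genotype after 72 h of auxin, wild-type DLD-1 cultures, and DLD-1 cultures in which GATA6 was knocked out with CRISPR, with no auxin given in the labels for either culture. The labels speak of clones and do not say which clone a library came from or whether replicates were separate cultures, so p-values measure the spread between these samples, which may be technical. GATA6 protein was not measured in these data, and cells rinsed without prior auxin were not analysed here. Removal of auxin, the rinse with fresh medium and the extra day of culture cannot be told apart. With 1 time after washout, the share of a change regained at 24 h can be given, but not a rate.

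GATA6 belongs to the zinc-finger GATA family of transcription factors, acts in endoderm-derived tissues, binds GATA motifs in DNA and is needed for the maintenance and differentiation of the intestinal epithelium. In a degron system a plant F-box protein recruits the tagged protein to a ubiquitin ligase when auxin is present, and the proteasome then removes the protein while its mRNA is left in place. Once auxin is gone, newly made protein can accumulate again, and the transcripts downstream return at a pace set by renewed transcription and by the lifetime of each mRNA.

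Promoters are shown for 4 genes whose course is described below, 3 that hold the letters of a GATA motif near their start and CLDN2, which holds none. They are RefSeq windows of GRCh38.p14, from 250 bases before to 50 bases after the annotated start, printed 5′ to 3′ on the gene's strand. Capitals mark matches to the GATA motif on either strand. The letters searched were AGATAA, its variant with T in first place TGATAA, the form that ends in G, written AGATAG, and the form with both changes, written TGATAG. No matches overlapped.
CLDN2, chrX:106899914-106900213, plus strand: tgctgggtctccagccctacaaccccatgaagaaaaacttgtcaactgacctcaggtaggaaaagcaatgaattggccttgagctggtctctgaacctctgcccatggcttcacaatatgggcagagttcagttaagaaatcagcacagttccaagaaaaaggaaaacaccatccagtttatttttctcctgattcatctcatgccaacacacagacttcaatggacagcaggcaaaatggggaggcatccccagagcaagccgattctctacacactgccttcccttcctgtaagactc
CXCL5, chr4:73998628-73998927, minus strand: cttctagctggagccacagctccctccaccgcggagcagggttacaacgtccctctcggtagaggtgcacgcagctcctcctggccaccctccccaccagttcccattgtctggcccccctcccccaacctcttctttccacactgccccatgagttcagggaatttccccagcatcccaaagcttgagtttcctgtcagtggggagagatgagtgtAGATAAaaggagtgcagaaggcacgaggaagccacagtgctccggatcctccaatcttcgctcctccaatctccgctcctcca
SLC2A12, chr6:134052575-134052874, minus strand: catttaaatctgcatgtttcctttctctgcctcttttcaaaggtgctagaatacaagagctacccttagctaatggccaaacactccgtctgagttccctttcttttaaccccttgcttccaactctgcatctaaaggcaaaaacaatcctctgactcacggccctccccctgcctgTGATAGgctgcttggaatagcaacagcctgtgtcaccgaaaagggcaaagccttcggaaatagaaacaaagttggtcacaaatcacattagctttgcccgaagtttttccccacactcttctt
KRT20, chr17:40885193-40885492, minus strand: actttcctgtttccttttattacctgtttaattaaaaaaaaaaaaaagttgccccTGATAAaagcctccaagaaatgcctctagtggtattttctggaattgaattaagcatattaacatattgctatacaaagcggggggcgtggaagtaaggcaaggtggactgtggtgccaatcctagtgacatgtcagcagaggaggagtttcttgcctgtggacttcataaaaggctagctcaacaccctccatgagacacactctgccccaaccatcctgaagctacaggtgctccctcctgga
CLDN2 and CXCL5 were lower at 12 h of auxin, and SLC2A12 and KRT20 were higher. Of 12 genes looked up, 9 had a window and 4 of these 9 held at least 1 match, compared with 8769 of 35116 RefSeq promoter windows (25%). Those with a match were CXCL5, SLC2A12, KRT20 and TCF4, whose window is not printed. The TCF4 window lies wholly inside the longer gene span of the annotation, so counting it as a promoter match is uncertain. Which start of TCF4 these cells use was not examined. The windows without a match were those of CLDN2, BACH2, UGT1A6, IL33 and CYP26B1. A match is a run of letters and not a binding site, and binding elsewhere was not examined.

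The libraries held 18462679 to 25394470 counts at 12 h, 18596791 to 19326940 after washout and 18296428 to 21239316 in control. The colorectal epithelial markers EPCAM, CDH1, KRT8, KRT18 and KRT19 had group means from 760.2 to 7262 CPM (counts scaled to a common library size with TMM), whereas the brush-border gene VIL1 was low in every group (3.56 to 4.59 CPM). A set of 4 libraries stood apart in haemoglobin transcripts (HBA1, HBA2 and HBB summed, the first pair being near-identical). These were 12 h replicates 2 and 3, with 4897 and 1027 counts, and washout replicates 1 and 3, with 227 and 2739 counts, against 1 to 5 counts in the other 5 libraries of control, 12 h and washout. The summed level of a 12-gene leukocyte list was also higher in those 4 libraries (3.01 to 6.31 CPM) than in the other 5 (0.72 to 1.28 CPM), with 8 of the 12 genes under 1 CPM in all 9. The first principal component (22.5% of the variance) separated these 4 libraries from the others, and the second (17.9%) separated 12 h from washout with control between them. Leaving those 4 libraries out keeps 1 library at 12 h and 1 after washout, whose spread is then assumed to be that of the other groups.

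Many genes differed between washout and 12 h, mostly by little. Of 14029 genes tested, 2444 (17.4%) differed between washout and 12 h at an adjusted p under 0.05 (edgeR quasi-likelihood test, Benjamini-Hochberg over all genes), 1300 of them higher (9.27%) and 1144 lower (8.15%) after washout. The larger direction depended on the scaling, with 1011 higher and 1323 lower under total-count scaling and 503 higher and 620 lower on the log2(TPM + 1) scale. The median size of a called change was 1.21-fold, and a log2 of 1 or more was reached by 100 genes (0.713%), of which 51 (0.364%) increased and 49 (0.349%) decreased. The count was 334 without the 4 libraries with haemoglobin transcripts, 1566 without 12 h replicate 1, 1414 without washout replicate 3 and 1123 on the log2(TPM + 1) scale. For orientation, 12 h differed from control in 1037 genes (7.39%), 567 higher (4.04%) and 470 lower (3.35%), and the split was 726 higher and 359 lower with total-count scaling and 253 higher and 104 lower on the log2(TPM + 1) scale. Washout differed from control in 701 genes (5%), 370 higher (2.64%) and 331 lower (2.36%), and 40 of them (0.285%) reached a log2 of 1. These counts were 606 without 12 h replicate 1 and 623 without control replicate 2 for the former, and 353 without washout replicate 3 and 321 without control replicate 3 for the latter. All 3 comparisons share libraries, so their values are set side by side for each gene and are not counted against each other.

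GATA6 mRNA showed no called change. The degron acts on the protein, so its transcript level is no check of depletion. It stood at 42.4, 45.1 and 48.1 CPM at 12 h, at 51.2, 45.5 and 51.0 CPM after washout and at 43.2, 49.8 and 46.9 CPM in control. The groups overlapped, and washout minus 12 h was a log2 of 0.13 ± 0.071 (SE, n = 3 and 3, adjusted p = 0.240).

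CLDN2, LGR5, OLR1 and SLC2A12 had moved most of the way back a day later, and they differed in whether they stopped short of the control level or passed it. CLDN2, a claudin that forms a cation pore in tight junctions (chrX:106900164-106930861, plus strand, hg38), rose 4.95-fold after washout and remained below control. LGR5, a receptor for R-spondins and a marker of intestinal stem cells (chr12:71439770-71586310, plus strand), rose 2.55-fold and also remained below. OLR1, a scavenger receptor for oxidised LDL (chr12:10158301-10172138, minus strand), rose 2.91-fold and passed control. SLC2A12, a glucose transporter (chr6:133988697-134052636, minus strand), had risen at 12 h and fell 2.85-fold.

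CLDN2 read 7.19, 6.82 and 6.81 CPM in 12 h libraries, 34.9, 35.3 and 32.8 CPM in washout libraries and 43.1, 47.5 and 53.3 CPM in controls. The 3 groups did not overlap, and every washout library lay between the 12 h and control libraries. Washout minus 12 h was a log2 of 2.31 ± 0.088 (SE, adjusted p = 9.84e-16), and washout minus control was -0.48 ± 0.071 (adjusted p = 0.000121). On the log2(CPM + 0.1) scale the washout libraries had regained 82.8% ± 2.03 (SD, n = 3) of the distance between 12 h and control, a description that shares its 12 h and control means with the other comparisons. LGR5 read 24.5, 23.8 and 21.9 CPM in 12 h libraries, 59.8, 56.8 and 62.9 CPM in washout libraries and 68.2, 68.0 and 70.9 CPM in controls. The order was the same as for CLDN2, with no overlap. LGR5 regained 86.7% ± 4.69 (SD, n = 3), and the log2 of washout minus control was -0.21 ± 0.060 (SE, adjusted p = 0.044).

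OLR1 read 137.4, 136.5 and 117.8 CPM in 12 h libraries, 390.3, 388.6 and 363.5 CPM in washout libraries and 335.5, 316.5 and 321.0 CPM in controls. All washout libraries were above all control libraries, by a log2 of 0.23 ± 0.052 (SE, adjusted p = 0.00882), and the share regained was 117.6% ± 4.37 (SD, n = 3). SLC2A12 read 20.9, 21.4 and 27.6 CPM in 12 h libraries, 7.73, 7.73 and 8.91 CPM in washout libraries and 9.94, 6.82 and 8.76 CPM in controls. Its washout and control libraries overlapped, with a log2 difference of -0.06 ± 0.15 (SE, adjusted p = 0.866). The share regained was 103.6% ± 8.08 (SD, n = 3), and 95.7% to 115.5% with each library left out in turn. All 4 genes passed the test between washout and 12 h without the libraries with haemoglobin transcripts as well.

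**Figure D1:**
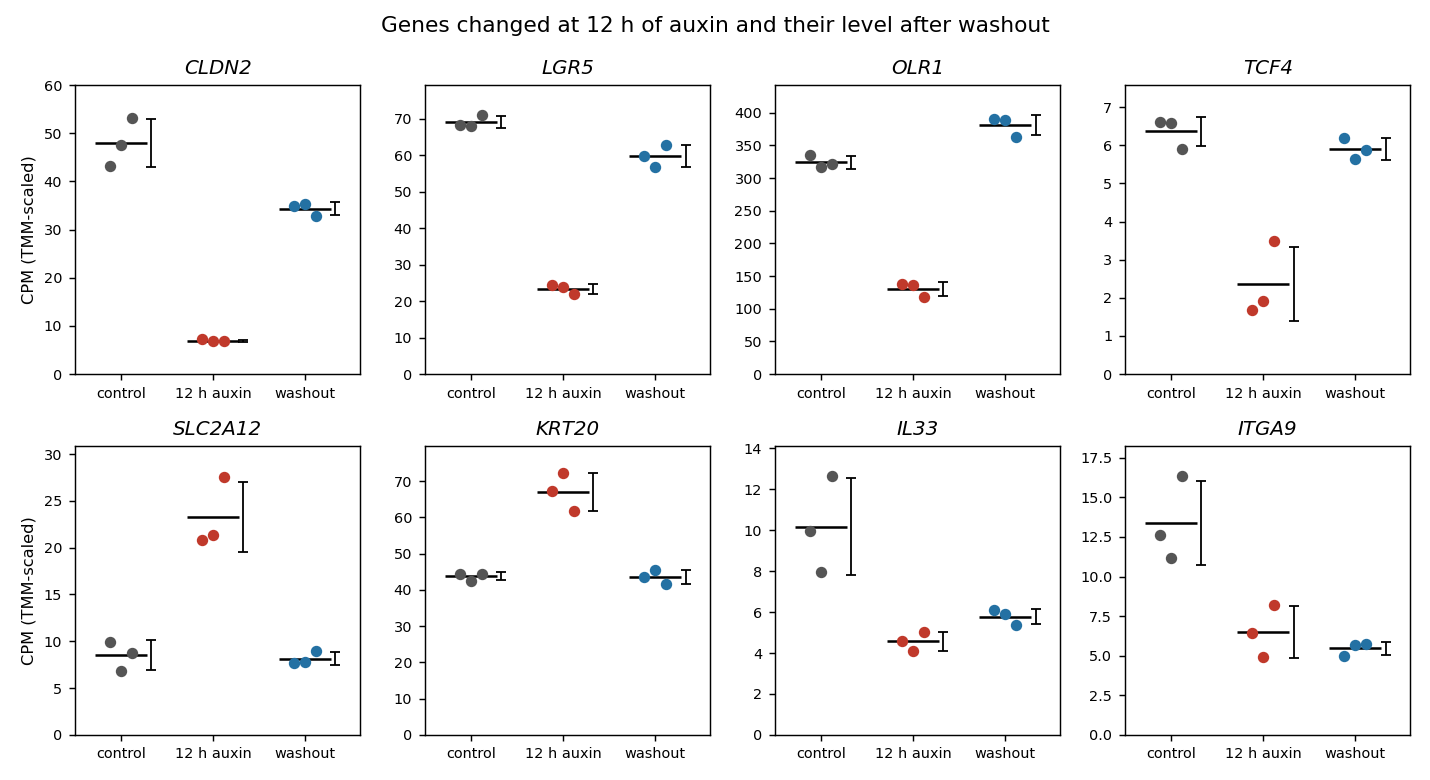
Expression of 8 genes in control, 12 h auxin and washout libraries, in CPM scaled by TMM on a linear axis from 0. Points are libraries (n = 3 a group), horizontal bars are means and vertical bars 1 SD. CLDN2, LGR5, OLR1 and TCF4 fell at 12 h and were closer to or above control after washout, SLC2A12 and KRT20 rose and came back, and IL33 and ITGA9 remained below control.

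The transcripts of 3 transcription factors also moved towards control. TCF4, an E-protein of the helix-loop-helix family, read 1.68, 1.93 and 3.49 CPM in 12 h libraries, 6.19, 5.63 and 5.89 CPM in washout libraries and 6.60, 6.58 and 5.91 CPM in controls. Its share regained was 92.8% ± 4.6 (SD, n = 3) and 136.5% when computed on TPM. MYC, the growth-promoting transcription factor, read 56.6, 54.6 and 54.5 CPM in 12 h libraries, 79.1, 82.2 and 91.2 CPM in washout libraries and 76.1, 93.9 and 76.8 CPM in controls. Washout and 12 h did not overlap for either gene, and MYC rose 1.52-fold (adjusted p = 4.54e-06). BACH2, a transcriptional repressor with a leucine zipper, moved the other way, from 7.90, 7.58 and 9.76 CPM at 12 h to 3.95, 3.81 and 4.35 CPM after washout, beside 3.69, 3.95 and 3.62 CPM in control. BACH2 fell 2.07-fold (adjusted p = 3.12e-06), a call that was lost on the log2(TPM + 1) scale (adjusted p = 0.365). The share regained was 91.1% on CPM and 60.3% on TPM.

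KRT20, a keratin of differentiated intestinal epithelium, had risen at 12 h and fell after washout to overlap the control libraries. It read 67.3, 72.2 and 61.7 CPM in 12 h libraries, 43.6, 45.6 and 41.7 CPM in washout libraries and 44.5, 42.4 and 44.3 CPM in controls. Washout minus 12 h was a log2 of -0.62 ± 0.061 (SE, adjusted p = 9.33e-08), and washout minus control was -0.00 ± 0.063 (adjusted p = 0.985). C4BPB, the beta chain of a complement inhibitor, rose from 17.0 ± 2.2 to 37.0 ± 1.8 CPM (SD, n = 3), beside 32.1 ± 0.79 CPM in control. CCRL2, an atypical chemokine receptor, rose from 2.75 to 5.83 CPM, and the Ras-family GTPase DIRAS2 rose from 1.91 to 4.69 CPM. The share regained in these 3 genes ran from 109.7% to 128.4%. PKDCC, a secreted kinase, rose to 94.2% ± 30.6 and the adaptor NYAP2 to 75.2% ± 30.2 (SD, n = 3), with washout libraries too far apart to place either relative to control. The calls of DIRAS2, PKDCC and NYAP2 were lost without the libraries with haemoglobin transcripts (adjusted p = 0.0659, 0.118 and 0.309), and that of PKDCC also on the log2(TPM + 0.1) scale (adjusted p = 0.0637).

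Another group went beyond the control level. THBS1, the matrix glycoprotein thrombospondin, read 199, 194 and 176 CPM in 12 h libraries, 383, 368 and 388 CPM in washout libraries and 286, 311 and 240.1 CPM in controls. Each washout library exceeded each control library, and the log2 of washout minus control was 0.44 ± 0.071 (SE, adjusted p = 0.00124). ANKRD1, a nuclear ankyrin-repeat protein and a known target of YAP, went from 3.71 ± 0.68 CPM at 12 h to 9.95 ± 0.63 CPM, beside 5.99 ± 1.3 CPM in control (SD, n = 3). The endocytic adaptor DAB2 went from 5.79 ± 0.24 to 12.6 ± 0.99 CPM, beside 8.61 ± 0.35 CPM in control. F3, which encodes tissue factor, went from 71.9 ± 3.6 to 129.7 ± 4.8 CPM, beside 93.9 ± 11 CPM in control. All 4 passed the test against control as well as against 12 h. Shares regained were 182% ± 7.07 for THBS1, 211% ± 13.5 for ANKRD1 and 197% ± 19.9 for DAB2 (SD, n = 3).

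Passing the control level also occurred downward. PCP4, a regulator of calmodulin, read 5.91, 6.18 and 6.92 CPM in 12 h libraries, 1.53, 2.38 and 1.96 CPM in washout libraries and 3.74, 3.99 and 4.57 CPM in controls. SCIN, an actin-severing protein, read 6.73, 6.82 and 7.62 CPM in 12 h libraries, 2.19, 2.27 and 2.55 CPM in washout libraries and 4.63, 4.48 and 4.85 CPM in controls. In both genes the washout libraries were the lowest of the 9, and washout minus control was a log2 of -1.06 ± 0.17 for PCP4 (SE, adjusted p = 0.000313) and -0.99 ± 0.15 for SCIN (adjusted p = 0.000137).

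Recovery was incomplete for further genes. CXCL5, a neutrophil-attracting chemokine, read 361, 366 and 281 CPM in 12 h libraries, 470.5, 465 and 447 CPM in washout libraries and 759.6, 685 and 633 CPM in controls. The 3 groups did not overlap, CXCL5 regained 44.4% ± 3.62 (SD, n = 3), and it rose 1.37-fold over 12 h (adjusted p = 0.0112) but not past the threshold without the libraries with haemoglobin transcripts (adjusted p = 0.118). IL33, an epithelial alarmin cytokine, read 4.59, 4.09 and 5.04 CPM in 12 h libraries, 6.08, 5.91 and 5.36 CPM in washout libraries and 9.94, 7.94 and 12.7 CPM in controls. Its log2 of washout minus 12 h was 0.34 ± 0.17 (SE, adjusted p = 0.159), while washout minus control was -0.81 ± 0.15 (adjusted p = 0.00202). PTPRR, a receptor-type tyrosine phosphatase, had 41.9% ± 11.5 of its change regained (SD, n = 3) and likewise missed the threshold against 12 h (log2 0.69 ± 0.25, adjusted p = 0.055), but passed it without 12 h replicate 3 (adjusted p = 0.00929).

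Among genes raised at 12 h, CYP26B1, which degrades retinoic acid, read 36.3, 33.2 and 34.3 CPM in 12 h libraries, 25.9, 23.0 and 26.4 CPM in washout libraries and 17.0, 18.9 and 13.2 CPM in controls. The washout libraries lay between the others without overlap, 42.5% ± 9.88 of the change was regained (SD, n = 3), and the fall from 12 h passed the test (log2 -0.46 ± 0.085, adjusted p = 0.000586) but not on the log2(TPM + 1) scale (adjusted p = 0.053). The desmosomal cadherin DSC2 fell from 16.8 ± 0.75 to 11.2 ± 0.82 CPM, beside 8.75 ± 0.74 CPM in control (SD, n = 3), and differed from both. The neuronal calcium sensor VSNL1 fell from 5.71 ± 0.27 to 3.89 ± 0.36 CPM, beside 2.73 ± 0.44 CPM, and its call was lost without the libraries with haemoglobin transcripts (adjusted p = 0.107). Shares regained were 37.3% for the adhesion receptor ADGRF1 and 64.0% for DACT1, a modulator of WNT signalling. STING1, an adaptor of cytosolic DNA sensing, had instead fallen at 12 h (log2 of 12 h minus control -1.28, adjusted p = 0.000154) and had regained 52.2%. The washout calls of these 3 genes were not stable. That of STING1 was lost without any of 5 libraries (adjusted p from 0.0654 to 0.117), those of ADGRF1 and DACT1 without any of 4 each (adjusted p from 0.0819 to 0.128 and from 0.063 to 0.147).

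ITGA9 and UGT1A6 did not pass the test against 12 h and remained below control. ITGA9, an integrin subunit (chr3:37452115-37823514, plus strand), read 6.42, 4.94 and 8.21 CPM in 12 h libraries, 4.99, 5.69 and 5.73 CPM in washout libraries and 12.7, 11.2 and 16.3 CPM in controls. Washout and 12 h libraries overlapped (log2 -0.24 ± 0.18, SE, adjusted p = 0.413), and washout lay below control (log2 of washout minus control -1.29 ± 0.17, adjusted p = 0.000105). UGT1A6, a glucuronosyltransferase (chr2:233691607-233773300, plus strand), read 14.1, 12.0 and 12.6 CPM in 12 h libraries, 12.2, 11.4 and 12.6 CPM in washout libraries and 29.04, 26.4 and 22.8 CPM in controls. Its washout minus control was a log2 of -1.11 ± 0.12 (SE, adjusted p = 4.47e-06). UGT1A6 shares exons with other UGT1A genes, so its counts are uncertain. Its share regained was -9.22% ± 6.91 on CPM (SD, n = 3) and 4.84% on TPM, and that of ITGA9 was -21.5% ± 10.7 on CPM and -47.2% on TPM. With 1 library left out they ran from -14.7% to -2.74% for UGT1A6 and from -47.4% to -3.64% for ITGA9.

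**Figure D2:**
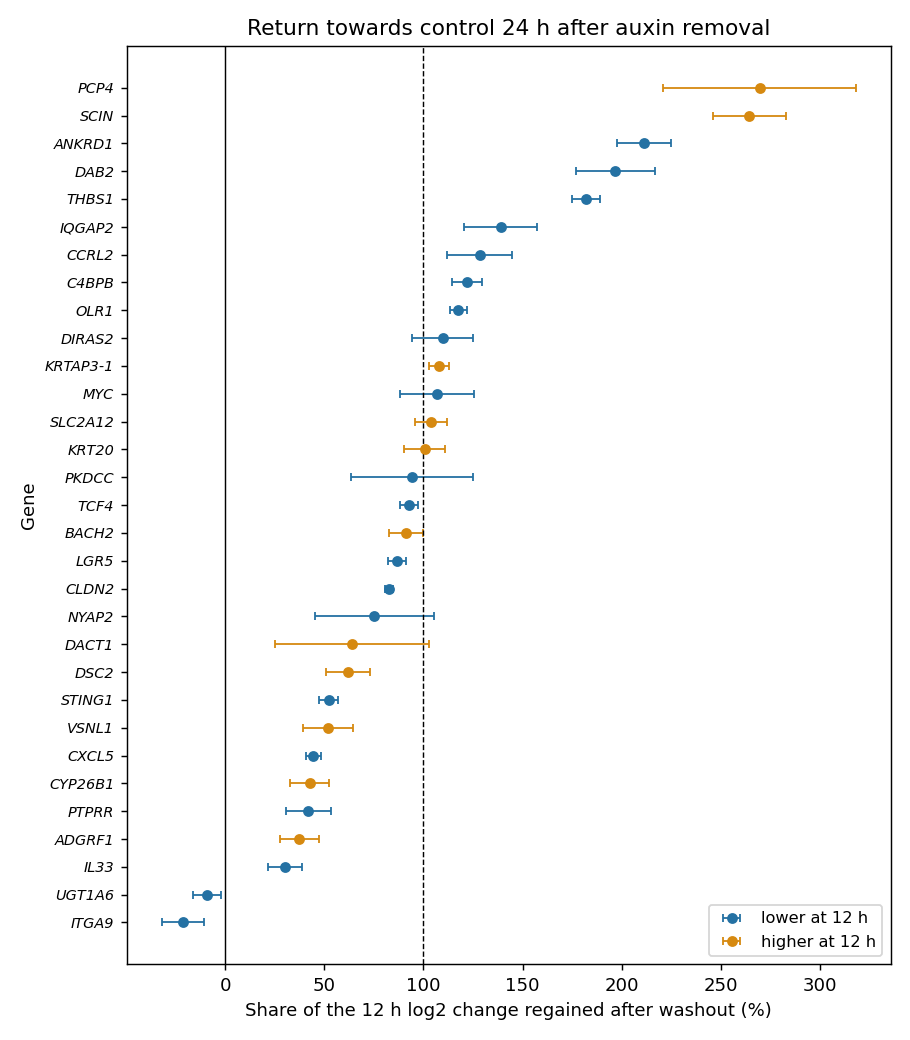
Share of the log2(CPM + 0.1) change between control and 12 h that was regained after washout, for 31 genes, as mean and SD over 3 washout libraries, with 0% the 12 h mean and 100% the control mean. Blue genes were lower and orange genes higher at 12 h, and shares run from -21.5% (ITGA9) to 269.6% (PCP4).

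Most genes of the ribosome biogenesis list fell at 12 h and rose after washout. Of 16 tested, 13 rose after washout and none fell, beside 9.27% of all genes higher and 8.15% lower. Their median log2 was 0.223, beside 0.002 over all genes. At 12 h 12 of the 16 had fallen relative to control (median -0.271), beside 3.35% of all genes. After washout none of the 16 differed from control (median 0.002), beside 5% of all genes. NCL, the nucleolar protein nucleolin, had means of 1381 CPM at 12 h and 1752 CPM after washout, beside 1736.5 CPM in control. PES1, a factor of large-subunit assembly, read 186, 199.5 and 181 CPM in 12 h libraries, 241, 256 and 255 CPM in washout libraries and 227, 250.1 and 224 CPM in controls. NOLC1, a nucleolar phosphoprotein, rose 1.26-fold (adjusted p = 1.9e-05), and RRP9, a component of the U3 snoRNP, rose 1.23-fold (adjusted p = 0.00203, and 0.226 without the libraries with haemoglobin transcripts). The count was 3 of 16 without the libraries with haemoglobin transcripts and 8 on the log2(TPM + 1) scale. The 22 ribosomal protein genes tested held no call in either direction, with a median of 0.022.

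The promoters of PES1 and RRP9 are shown because they hold the E-box CACGTG, in capitals, a motif bound by MYC. A part of MYC in the changes of this list was not tested.
PES1, chr22:30591861-30592160, minus strand: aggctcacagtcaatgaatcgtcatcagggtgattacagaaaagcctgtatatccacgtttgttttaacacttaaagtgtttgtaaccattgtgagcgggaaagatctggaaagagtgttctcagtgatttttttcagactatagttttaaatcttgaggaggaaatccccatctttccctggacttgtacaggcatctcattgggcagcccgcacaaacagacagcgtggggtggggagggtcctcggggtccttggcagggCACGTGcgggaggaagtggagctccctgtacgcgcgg
RRP9, chr3:51941855-51942154, minus strand: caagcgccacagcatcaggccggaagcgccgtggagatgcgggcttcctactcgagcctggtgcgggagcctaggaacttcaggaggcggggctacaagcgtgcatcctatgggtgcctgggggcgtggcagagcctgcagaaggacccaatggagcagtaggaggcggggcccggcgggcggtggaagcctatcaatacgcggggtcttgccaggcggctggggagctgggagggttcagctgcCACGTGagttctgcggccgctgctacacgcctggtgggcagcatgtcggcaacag
The E-box, which reads the same on both strands, was found in 3 of 12 windows of the ribosome biogenesis list (FBL being the other) and in 7.26% of all RefSeq windows. The PES1 window lies inside the longer gene span of the annotation. The letters give no measure of binding.

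A different set of genes had changed little or not at all at 12 h and moved after washout, so it had little or no 12 h change to regain. Lipid synthesis was among them. Of 24 cholesterol synthesis and uptake genes tested, 13 fell after washout and none rose (median log2 -0.216). Over all genes 8.15% were lower and 9.27% higher. Of the 24, 12 were below control after washout, beside 2.36% of all genes. At 12 h 3 of the 24 had been higher and 1 lower than control, beside 4.04% and 3.35% of all genes. INSIG1, the sterol-responsive anchor of the SREBP system, read 93.9, 94.1 and 106.6 CPM in 12 h libraries, 48.1, 53.8 and 47.4 CPM in washout libraries and 79.9, 77.5 and 94.7 CPM in controls, with a log2 of washout minus 12 h of -0.98 ± 0.072 (SE, adjusted p = 3.51e-09). HMGCS1, which makes HMG-CoA, fell by 0.48 on the log2 scale, and MSMO1, a sterol demethylase, fell by 0.59. INSIG1 and MSMO1 had been slightly higher than control at 12 h (log2 0.23 and 0.22, adjusted p = 0.04996 and 0.0268). Of 15 fatty acid genes, 4 fell and none rose, beside 8.15% and 9.27% of all genes. SCD, the stearoyl-CoA desaturase, read 629, 584 and 640.1 CPM in 12 h libraries, 306, 278 and 290.2 CPM in washout libraries and 592, 573 and 626 CPM in controls. Its washout libraries were lower than all others, with a mean 2.12-fold below 12 h (adjusted p = 4.61e-14). Without the libraries with haemoglobin transcripts, 7 cholesterol genes and 1 fatty acid gene, SCD, passed, and without washout replicate 2 the fatty acid count was 2.

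Amino acid stress genes, among them targets of ATF4, fell in 7 of 18 cases and rose in none (median log2 -0.135). Over all genes 8.15% were lower and 9.27% higher. The count of falls was 4 without 12 h replicate 2 and 4 without washout replicate 1. Without the libraries with haemoglobin transcripts the median log2 of the list was -0.126. ASNS, asparagine synthetase, read 125, 116 and 103 CPM in 12 h libraries, 65.0, 66.3 and 57.5 CPM in washout libraries and 117, 110.2 and 107 CPM in controls. ASNS fell 1.82-fold (adjusted p = 8.11e-08), with its washout libraries below all others. The cystine importer SLC7A11 fell 1.65-fold. Immediate early genes changed in 5 of 18 cases, 4 lower and 1 higher, beside 8.15% and 9.27% of all genes. FOS, a subunit of AP-1, read 18.5, 19.0 and 32.7 CPM in 12 h libraries, 5.76, 6.52 and 7.11 CPM in washout libraries and 18.5, 22.5 and 33.3 CPM in controls. The washout libraries lay below all others, and those of 12 h and control overlapped. FOS fell 3.59-fold (adjusted p = 0.00451), and the adjusted p was 0.229 without the libraries with haemoglobin transcripts. FOSB, DUSP1 and IER2 fell 2.49-fold, 1.63-fold and 1.26-fold, and FOSL2 rose. Without the libraries with haemoglobin transcripts 1 immediate early gene passed, and FOSB and IER2 did not (adjusted p = 0.237 and 0.133). The FOSB call was also lost on the log2(TPM + 1) and log2(TPM + 0.1) scales (adjusted p = 0.053 and 0.0517).

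Of 26 enterocyte genes listed, 9 passed the low-count filter and were tested. Of these 9, 4 fell and 1 rose (CA2), beside 8.15% of all genes lower and 9.27% higher. Their median log2 was -0.535. CDH17, liver-intestine cadherin, read 79.9, 78.0 and 72.7 CPM in 12 h libraries, 41.2, 43.3 and 41.7 CPM in washout libraries and 75.0, 77.0 and 70.7 CPM in controls. ABCB1, the drug efflux pump P-glycoprotein, read 52.0, 51.5 and 46.7 CPM in 12 h libraries, 26.6, 28.1 and 26.6 CPM in washout libraries and 55.7, 59.4 and 50.9 CPM in controls. In both genes every washout library lay below every other library, by a log2 of -0.87 ± 0.057 for CDH17 (SE, adjusted p = 9.35e-11) and -0.89 ± 0.069 for ABCB1 (adjusted p = 2.32e-09) relative to 12 h. The peptidase DPP4 fell from 3.26 ± 0.77 to 1.33 ± 0.38 CPM (SD, n = 3). KRT20 was the fourth to fall, and unlike the other 3 it had risen at 12 h. In the fit without the libraries with haemoglobin transcripts 3 of the 4 falls and no rise passed, DPP4 being the one lost (adjusted p = 0.312). In the other direction, the actin-binding protein CALD1 went from 24.8 ± 3.8 to 39.6 ± 1.5 CPM, beside 22.2 ± 2.9 CPM in control (SD, n = 3).

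**Figure D3:**
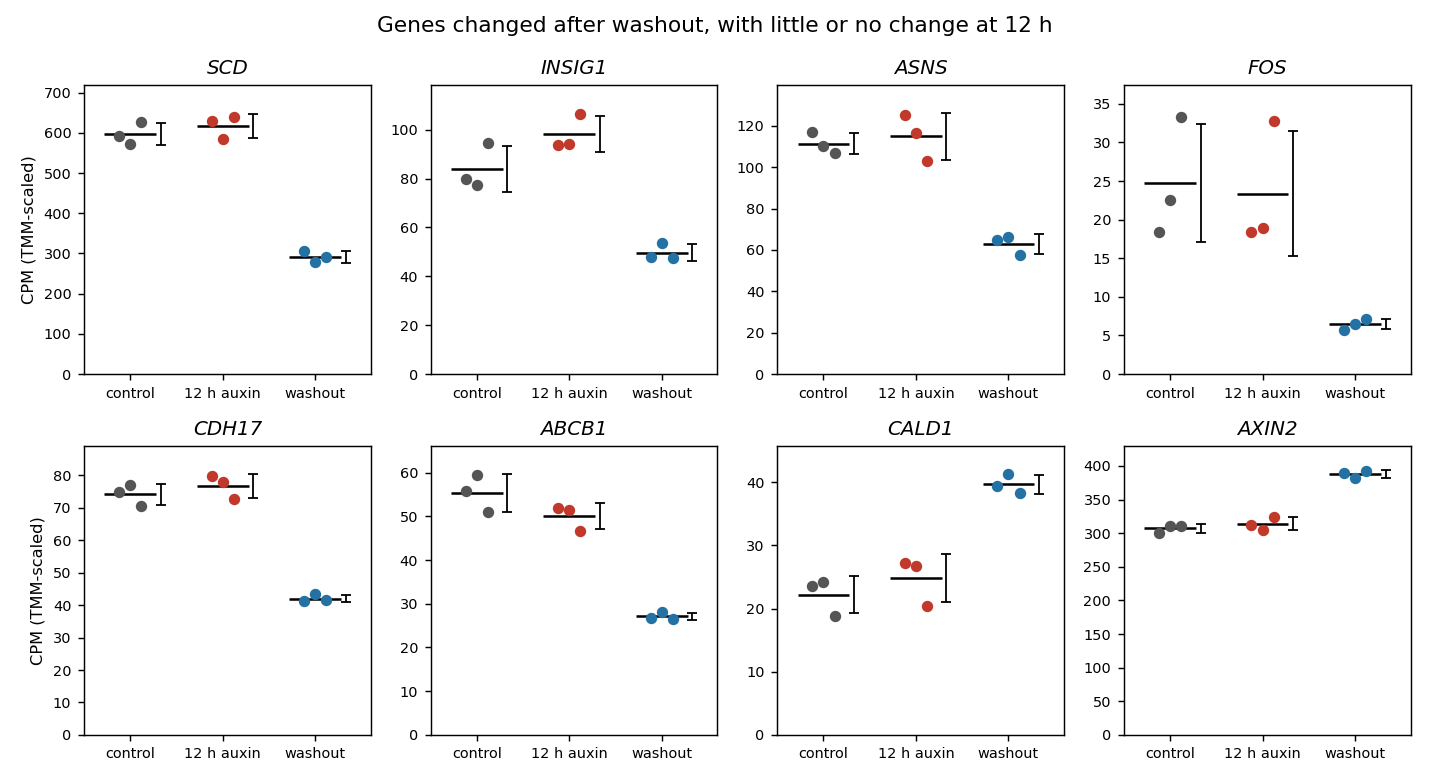
Expression of 8 genes that changed after washout and had changed little (INSIG1) or had no called change at 12 h, in CPM scaled by TMM on a linear axis from 0. Points are libraries (n = 3 a group), horizontal bars are means and vertical bars 1 SD; SCD, INSIG1, ASNS, FOS, CDH17 and ABCB1 were lowest and CALD1 and AXIN2 highest after washout.

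Under continued auxin these 8 genes also differed from control. At 72 h the log2 of 72 h minus control was -3.67 for ABCB1, -2.30 for FOS, -0.64 for CDH17, -0.39 for SCD and -0.21 for INSIG1, 1.03 for CALD1 and 0.84 for AXIN2, each in the direction seen after washout. ASNS was higher at 72 h, by 0.33. All 8 passed the test at 72 h (adjusted p from 4.04e-21 to 0.0128). ABCB1 stood at 4.55, 4.24 and 4.27 CPM in 72 h libraries, below its washout level, and AXIN2 at 549.6, 549.7 and 554.8 CPM, above its washout level.

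The stem cell and WNT list split. Its calls and those of the tight junction list are read beside the 9.27% of all genes that were higher and the 8.15% that were lower. LGR5, TCF4, MYC and AXIN2 rose, and 8 of the 18 fell, among them ASCL2, EPHB2 and CD44, with a median log2 of -0.136. On the log2(TPM + 1) and log2(TPM + 0.1) scales the rises numbered 4 and the falls 2, with medians of -0.041 and -0.044. TCF4 in this list is the E-protein described above, and not the WNT effector TCF7L2 that is also called TCF4. AXIN2, a feedback inhibitor of WNT signalling, read 313, 305 and 324 CPM in 12 h libraries, 389, 382 and 393 CPM in washout libraries and 299.5, 311 and 311 CPM in controls, so that it was above both groups. The rises held in number (4) and the falls numbered 0 without the libraries with haemoglobin transcripts, and the falls numbered 5 without washout replicate 1 or replicate 2. In the tight junction list CLDN2 and TJP1 rose and 4 of 15 fell, CLDN4 by 1.13-fold and CLDN12 by 1.24-fold, and the falls numbered 2 without 12 h replicate 3 or washout replicate 2 and 0 without the libraries with haemoglobin transcripts, where CLDN2 alone rose and CLDN4 and CLDN12 had an adjusted p of 0.206 and 0.157.

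Calls in the signalling lists are read beside the 9.27% of all genes that were higher and the 8.15% that were lower. Of 10 chemokine and cytokine genes, 4 rose and none fell (median log2 0.434), among them CXCL16, a transmembrane chemokine (1.33-fold, adjusted p = 5.01e-05), and NFKBIA, the inhibitor of NF-κB (1.41-fold, adjusted p = 0.00031). TGF-beta genes fell in 3 of 17 cases and rose in none. The receptor TGFBR2 read 133, 134 and 133 CPM in 12 h libraries, 102, 93.7 and 97.5 CPM in washout libraries and 108, 99.9 and 107 CPM in controls. Its 12 h libraries were higher than all others. In the EGFR and MAPK list 5 of 21 fell and 3 rose, with log2 values of -0.48 in EREG and -0.31 in AREG, both ligands of EGFR, and a rise of 1.28-fold in DUSP6, a phosphatase of ERK, and without 12 h replicate 1 the falls numbered 3 and the rises 1. In the YAP list 4 of 15 rose and 3 fell, led by ANKRD1 and F3, and in the integrin and matrix list 5 of 18 rose, led by THBS1, and 1 fell. The falls of the YAP list numbered 0 without 12 h replicate 3 or washout replicate 2, and the rises of the matrix list 3 without washout replicate 3. Without the libraries with haemoglobin transcripts the chemokine list had 1 rise, the TGF-beta list 2 falls, the EGFR list 2 falls and no rise, the YAP list 2 rises and 1 fall and the matrix list 1 rise, and the calls of CXCL16, AREG and DUSP6 were lost (adjusted p = 0.115, 0.0617 and 0.0597).

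**Figure D4:**
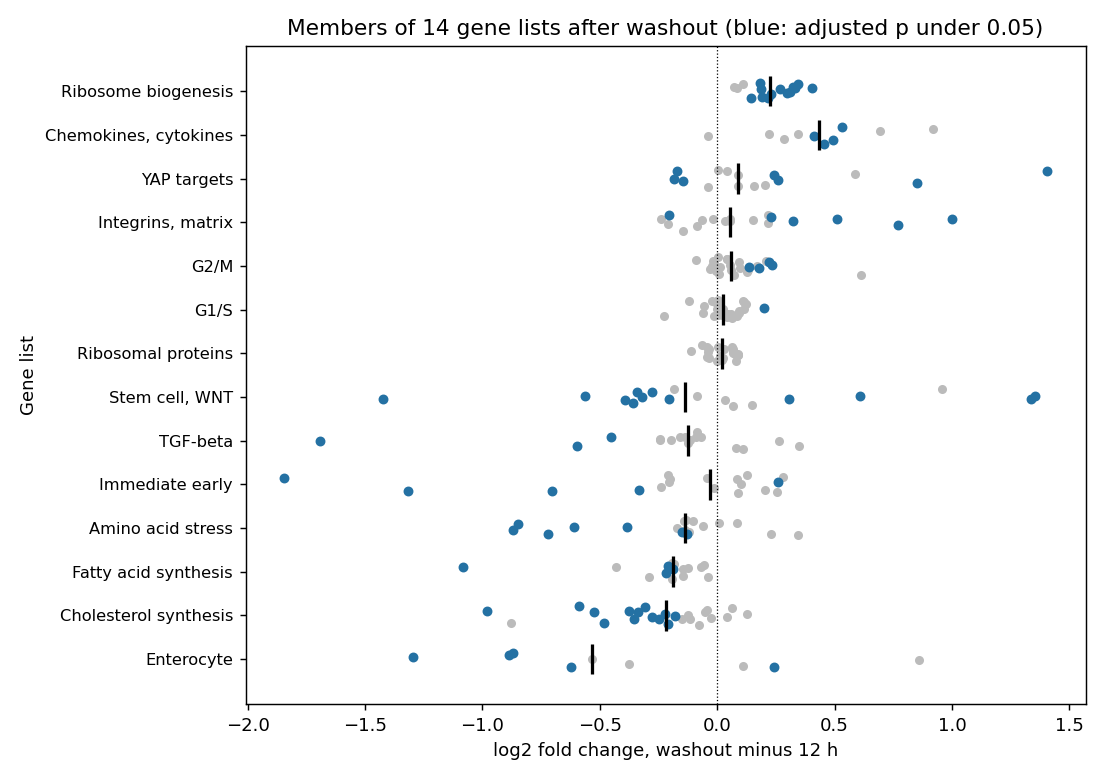
Log2 fold change of washout minus 12 h for the tested members of 14 gene lists. Each point is a gene, blue at an adjusted p under 0.05 and grey otherwise, and black bars are list medians, from -0.535 for enterocyte genes to 0.434 for chemokines and cytokines.

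Genes that change with GATA6 loss were also chosen in libraries outside this comparison, and their changes after washout were counted beside those of all genes, with no test of the difference in share. In cultures, 456 genes were lower by a log2 of 1 or more in GATA6-knockout (CRISPR/Cas9) than in wild-type DLD-1 cells, 3 libraries each, and 397 of them were tested here. Of these, 76 (19.1%) were higher after washout than at 12 h, beside 9.27% of all genes, and 33 (8.31%) were lower, beside 8.15%. The 76 made up 5.85% of all genes higher after washout. Of 794 tested genes that were higher in knockout, 86 (10.8%) were lower after washout, beside 8.15%, and 30 (3.78%) were higher, beside 9.27%. Among the 100 tested genes lower in knockout by a log2 of 2 or more, 28 (28%) were higher and 9 (9%) lower after washout, and their median log2 was 0.301. For the 162 tested genes higher in knockout by a log2 of 2 or more, the share lower after washout was near that of all genes. Of these 162, 15 (9.26%) were lower, beside 8.15%, and 3 (1.85%) were higher, with a median log2 of -0.061.

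Cells of the degron genotype after 72 h of auxin gave a further list. Its contrast uses no 12 h or washout library, but it was fitted together with them and shares their filter, scaling and dispersion estimates. Of 396 genes lower than control at 72 h, 50 (12.6%) were higher and 26 (6.57%) lower after washout. Of 673 genes higher at 72 h, 75 (11.1%) were lower and 34 (5.05%) higher. Over all genes 9.27% were higher and 8.15% lower after washout. Without the libraries with haemoglobin transcripts, in which 143 genes were higher and 191 lower, 20 genes lower in knockout were higher and 23 genes higher in knockout were lower after washout, and the same counts for the 72 h lists were 17 and 19. At a log2 of 2 or more the genes lower at 72 h were higher and lower in equal number, 8 of 135 each (5.93%). Both shares were below those of all genes. Medians of washout minus 12 h were 0.060 and -0.017 for the 72 h lists and 0.077 and -0.069 for the knockout lists, beside 0.002 over all genes. Members of these lists were expressed at lower levels than genes overall (median log2 CPM 0.87 to 2.67, beside 4.55), and the part of this in the shares was not tested. CLDN2, LGR5, TCF4 and MYC were lower, and SLC2A12 and KRT20 higher, at 72 h and in knockout cultures alike. Other named genes went against a list or both, among them ABCB1, ANKRD1 and STING1. ABCB1 had log2 values of -3.67 at 72 h against control and -6.66 in knockout against wild type, and fell after washout. ANKRD1 and STING1 were higher in knockout (log2 1.96 and 1.11) and rose after washout, and STING1 was lower at 72 h (-1.26).

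**Figure D5:**
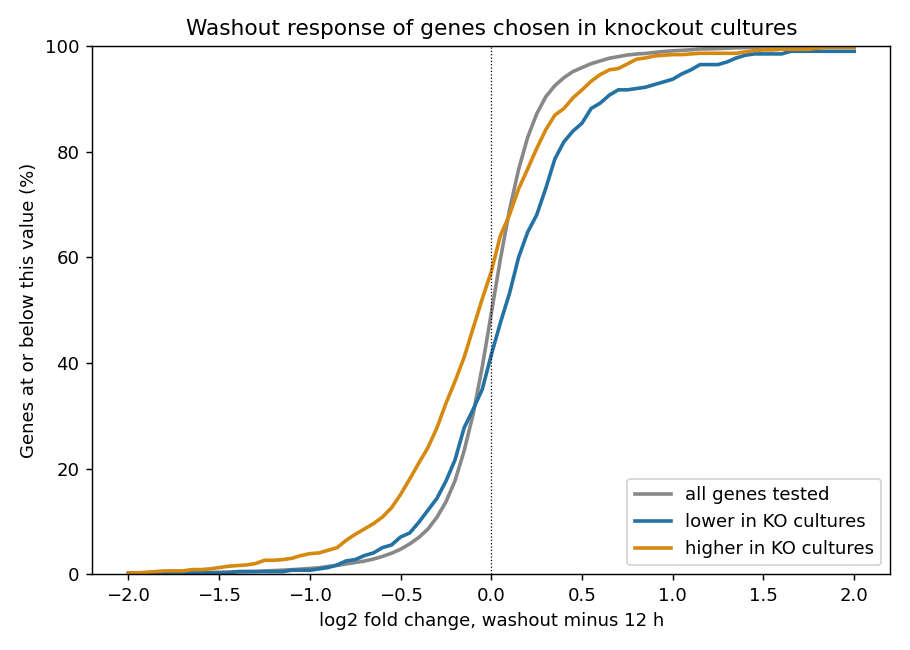
Cumulative share of genes (%) by log2 fold change of washout minus 12 h, for all 14029 genes tested and for genes at least a log2 of 1 lower (397) or higher (794) in GATA6-knockout cultures. The curve of genes lower in knockout lies to the right of that of all genes over most of the upper range (median 0.077). That of genes higher in knockout lies to the left over most of the lower range (median -0.069). Both curves cross that of all genes. At -0.4 or below lay 9.82% of genes lower in knockout, beside 6.96% of all genes. At 0.5 or below lay 91.69% of genes higher in knockout, beside 95.9% of all genes.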

How the data were processed

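Libraries were directional with poly-A selection, per the labels' protocols. The authors deposited expected counts and TPM per gene. Trim Galore 0.6.10, STAR, RSEM and build hg38 are listed in the submitters' processing notes. The annotation release and the strand setting of the counting are not given in the sources used here, so values of overlapping, antisense and near-identical genes are uncertain. Coordinates are from GENCODE 29 on hg38.

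After rounding, the deposited expected counts entered edgeR 4.0.16 under R 4.3.3 (filterByExpr, TMM, robust quasi-likelihood F test) over the 12 degron libraries in 4 groups. P-values were adjusted by Benjamini-Hochberg across the 14029 genes tested, with a threshold of 0.05. The SE of a log2 fold change is its size over the root of its F statistic. CPM values use TMM-scaled totals. The share regained is 100 times the distance of each washout library from the 12 h mean, divided by that of the control mean, on log2(CPM + 0.1). Wild-type and knockout cultures were fitted separately. DESeq2 1.42.0 on the same counts and limma 3.58.1 on log2 TPM served as alternatives.

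On simulated data of the washout comparison, with 13783 genes tested, 73% of 100 genes changed 1.5-fold and 89% of 100 changed 2-fold were recovered, none in the wrong direction, and 9 unchanged genes were called. The changed genes were drawn only from genes above a low-expression floor, and the counts were simulated as independent libraries. No split like that of the libraries with haemoglobin transcripts was simulated, so these rates need not hold for the real libraries. Deviations of equally numbered libraries correlated at -0.063 to 0.068, and those of unequally numbered libraries at -0.124 to 0.105. With 3 libraries a group, these correlations cannot settle whether equal numbers mark paired samples.

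Named genes are GATA6, the 4 markers (CLDN2, LGR5, OLR1 and SLC2A12), the 15 highest and lowest log2 changes after washout and the 12 highest and lowest at 12 h (called, mean log2 CPM of at least 1, groups not overlapping), the 5 highest and lowest shares regained, the 5 highest and lowest after washout within a log2 of 0.2 of control at 12 h, and from each list the 4 or fewer with the lowest p. The text names a selection, 1 withheld gene is not reported here, and RRP9 and list members named without values were chosen after their values were seen. The members, the 34 gene lists and the comparisons were chosen with earlier results of these data known.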

Additional observations from a re-analysis of the deposited data

How the results depend on the processing

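Of 78 genes checked after washout against 12 h, 76 kept direction and side of the threshold with DESeq2, 78 with total-count scaling, 77 without a low-count filter, 76 with the 2 groups alone and 71 with TPM on either pseudocount, where UGT1A6, not called, changed sign (0.045 and 0.047). Without the libraries with haemoglobin transcripts 48 kept their call and direction and 30 kept direction but lost the call. The replicate block gave 2642 calls for washout against 12 h and 77 of 78 genes unchanged in call, PTPRR becoming called (adjusted p = 0.0309). The labels do not say whether equal numbers mark paired samples. For 12 h against control the block gave 1202 calls and for washout against control 816.

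Genes called in washout against 12 h numbered 1123 and 1150 on log2(TPM + 1) and log2(TPM + 0.1), 334 without the libraries with haemoglobin transcripts, and 1414 to 2266 with 1 library left out. For 12 h against control these were 357, 341, 333 and 606 to 1170. For washout against control they were 281, 276, 179 and 321 to 896, and 458 with the 2 groups alone. The cause of these shifts was not tested beyond fewer libraries in the fits that leave some out.

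The counts of genes chosen elsewhere moved as follows, for log2(TPM + 1), log2(TPM + 0.1), without the libraries with haemoglobin transcripts, and a log2 of 2 in the choice. Genes lower in knockout and higher after washout numbered 45, 43, 20 and 28. Genes higher in knockout and lower after washout numbered 41, 44, 23 and 15. Genes higher at 72 h and lower after washout numbered 34, 43, 19 and 15. Genes lower at 72 h and higher after washout numbered 17 without those libraries and 8 at a log2 of 2.

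With 1 library left out, the share regained ran from 80.6% to 85.2% for CLDN2 and from 95.7% to 115.5% for SLC2A12, and on TPM that of UGT1A6 was 4.84%. Depth limits genes near 1 CPM, such as DACT1, whose share regained had an SD of 38.7 percentage points.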

Other observations

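In the aryl hydrocarbon receptor list 5 of 8 tested genes were lower and 1 higher than at 12 h, beside 8.15% and 9.27% of all genes. Without washout replicate 2 or replicate 3 the lower genes numbered 2. CYP1A1 and CYP1B1 of this list were not called (log2 -0.25 and -0.08). The median log2 of the list was -0.248, and -0.225 without the 4 libraries with haemoglobin transcripts. NQO1, a quinone reductase, went from 987 ± 79 CPM at 12 h to 685 ± 20 CPM, beside 919 ± 43 CPM in control (SD, n = 3). ALDH3A1, an aldehyde dehydrogenase, went from 223 ± 5.0 to 142 ± 5.9 CPM, beside 181 ± 14 CPM in control, so that it was above control at 12 h (adjusted p = 0.000498, edgeR quasi-likelihood test) and below it after washout (adjusted p = 0.000115). Of 25 genes of the G2/M phase 4 were higher and none lower, among them CDC20, an activator of the anaphase-promoting complex (1.17-fold, adjusted p = 0.00186), and of 25 G1/S genes 1 was higher and none lower, beside 9.27% of all genes higher and 8.15% lower. Without washout replicate 3 the G2/M count was 2, and without the libraries with haemoglobin transcripts it was 1 and CDC20 did not pass (adjusted p = 0.406).

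RPPH1, the RNA subunit of nuclear RNase P, went from 3.67, 5.22 and 3.65 CPM at 12 h to 1.26, 1.55 and 0.955 CPM after washout, beside 5.12, 3.95 and 5.35 CPM in control. It is not polyadenylated, and the libraries were poly-A selected. Its call (adjusted p = 0.000359) was not made without the libraries with haemoglobin transcripts (adjusted p = 0.232). The 13 mitochondrially encoded genes held no call in either direction (median log2 -0.121). No member of the erythroid, leukocyte, fibroblast and endothelial, secretory or squamous lists that was tested passed after washout against 12 h.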
